A study of Mus musculus with 33 samples.

Results

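Imprinted genes are transcribed mainly from the copy inherited from one parent, and 33 of them from 15 autosomal loci were followed here across mouse colon organoid lines. The 33 genes were chosen by symbol, with earlier results of these data known, and all were found in the count files. Of these, 19 reached 1 CPM (a count scaled to the size of its library) in at least 3 of the 33 libraries and were tested, 14 fell under that limit, and 13606 genes in all were tested. The libraries were made by QuantSeq, which reads 1 tag near the 3′ end of each polyadenylated transcript. Parental copies were not distinguished by these counts, so every value below is the sum over both alleles.

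The lines compared were in vivo AKP (6 libraries), mini-colon AKP #i, #ii, #iii, #iv and #v (3 libraries each), organoid AKP (6 libraries) and control (6 libraries). The alleles recombined in AKP lines include Apc (fl/fl) and Trp53 (fl/fl), both lost on recombination. In organoid AKP and mini-colon AKP, recombination was set off by OptoCre, a module in which blue light, with doxycycline present, turns on Cre expression, in plain organoids or in tube-shaped mini-colons grown on a microfluidic scaffold, after which the mini-colon tumours were expanded as organoid lines. In vivo AKP organoids were grown from colon tumours of mice in which tamoxifen had activated Cdx2-creERT2, a recombinase under a promoter active in the distal gut epithelium. Control organoids carried the same alleles, unrecombined. All lines were grown as organoids and then starved in basal medium without growth factors before RNA was taken. The study expanded tumour organoids without the added growth factors of its full organoid medium. The medium before starvation may therefore differ between control and AKP lines. The labels do not tie libraries to separate mice or separately made lines, and every p-value here therefore rests on the spread of libraries, which may be technical.

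Imprinting rests on DNA methylation that is laid down in one germ line at control regions and kept on that parental copy through later divisions. At several loci a long non-coding RNA starts from the unmethylated control region and silences neighbouring protein-coding genes on the same copy, as Kcnq1ot1 does across the Kcnq1 domain and Airn does at Igf2r. Many imprinted genes act on growth, among them the growth factor Igf2, its clearance receptor Igf2r, the cell cycle inhibitor Cdkn1c and the adaptor Grb10, and many are high in the fetus and fall in adult tissue.

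Start-site windows are shown for 3 paternally expressed genes that the values below turn on, because in mouse their promoters lie at or near regions methylated on the maternal copy. The windows come from the RefSeq promoter table (GRCm38.p6), run from 250 bases before to 50 bases after an annotated start, and were placed on GRCm39 by exact match, all on the minus strand. CpG dinucleotides, the methylated unit of mammalian DNA, are in capitals.
Kcnq1ot1 (chr7:142850235-142850534): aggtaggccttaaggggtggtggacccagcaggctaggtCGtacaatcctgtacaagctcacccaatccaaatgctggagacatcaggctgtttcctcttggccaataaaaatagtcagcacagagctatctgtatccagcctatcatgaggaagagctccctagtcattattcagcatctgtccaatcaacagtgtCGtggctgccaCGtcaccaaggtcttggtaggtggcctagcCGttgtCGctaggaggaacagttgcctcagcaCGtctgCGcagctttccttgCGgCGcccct
Peg3 (chr7:6733369-6733668): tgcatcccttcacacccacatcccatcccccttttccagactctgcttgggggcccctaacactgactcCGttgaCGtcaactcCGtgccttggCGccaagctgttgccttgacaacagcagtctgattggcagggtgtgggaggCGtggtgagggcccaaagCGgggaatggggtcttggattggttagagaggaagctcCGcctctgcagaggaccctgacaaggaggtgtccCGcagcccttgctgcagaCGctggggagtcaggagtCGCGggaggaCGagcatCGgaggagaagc
Snrpn downstream start (chr7:59654898-59655197): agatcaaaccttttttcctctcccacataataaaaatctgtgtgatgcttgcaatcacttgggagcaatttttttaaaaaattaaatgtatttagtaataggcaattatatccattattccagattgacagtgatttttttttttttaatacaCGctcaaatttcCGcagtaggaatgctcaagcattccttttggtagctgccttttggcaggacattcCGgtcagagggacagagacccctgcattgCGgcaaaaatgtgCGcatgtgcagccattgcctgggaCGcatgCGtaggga
Snrpn upstream start (chr7:60099876-60100175): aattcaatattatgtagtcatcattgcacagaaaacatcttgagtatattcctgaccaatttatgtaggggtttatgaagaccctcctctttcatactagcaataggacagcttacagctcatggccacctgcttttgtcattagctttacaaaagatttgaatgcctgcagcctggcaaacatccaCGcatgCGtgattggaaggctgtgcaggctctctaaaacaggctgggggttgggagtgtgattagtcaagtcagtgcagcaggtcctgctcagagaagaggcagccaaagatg
The Kcnq1ot1 window held 9 CpG, the Peg3 window 13, the downstream Snrpn window 7 and the upstream Snrpn window 2. In the RefSeq table the upstream Snrpn window is also the window of Snhg14. It lies outside the spans given below for Snrpn (chr7:59630427-59820763) and Snhg14 (chr7:58957672-59628040), and its place relative to the methylated region was not examined. The Peg3 window shares 263 bases with that of Usp29, which is read in the other direction. The hexamer TGCCGC, the motif that ZFP57 binds when it is methylated, was searched on both strands and found once in the downstream Snrpn window and not in the letters of the other 3. Over the 25 imprinted genes with an entry in the table, 10 of 38 windows (26.3%) held it, against 11.6% of all 32851 windows of that length, and their median was 12.5 CpG against 7. These counts describe the sequences, and methylation was not measured.

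Totals per library ranged from 2438672 to 8256526 counts. The code names of the deposited files carry a letter, E or F, whose meaning is not given in the sources used here. Mini-colon #i, #ii and #iii are E, #iv and #v are F, and in vivo AKP, organoid AKP and control have 3 libraries of each letter. Within a line, counts of libraries with different letters differed with a chi-square of 10.2 to 46.6 per degree of freedom over 27 pairs, against 1.66 to 14.9 over 33 pairs of the same letter, and no pair agreed within sampling noise. Results are therefore also given within each letter, and differences between mini-colon lines of different letters cannot be told apart from the letter. All in vivo AKP libraries carried Xist (438 to 1096 CPM) and almost no Ddx3y (up to 0.40 CPM), while the other lines held up to 1.72 CPM of Xist and at least 34.9 CPM of Ddx3y, so the origin in a tumour and the origin in another mouse cannot be told apart for in vivo AKP. Whether the 3′ tags of Apc and Trp53 fall inside the recombined exons was not tested, so these tags check no label. Trp53 tags were at 19.2 to 34.2 CPM in in vivo AKP, 1.97 to 11.7 CPM in the mini-colon lines, 1.07 to 3.78 CPM in organoid AKP and, in control, 14.4 to 19.1 CPM, and Cdkn1a, its target, was at most 319 CPM in every AKP library and at least 2214 CPM in every control library.

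Of the 14 imprinted genes under the limit, 5 had no count in any library: Magel2 of the Snrpn domain, Zim1, the microRNA host Mirg, Dlk1 and Nap1l5. Over all 33 libraries, Mest had 30 counts, Peg12 29, Usp29 16, Peg10 10, Meg3 8, Rian and Nnat 2 each, and Ndn and Rtl1 1 each. Thus no gene of the Dlk1-Dio3 domain, which holds the growth regulator Dlk1 and the maternal RNAs Meg3, Rian and Mirg, was above trace level at this depth. All 10 counts of Peg10, a retrotransposon-derived gene, and 11 of the 16 of Usp29 came from in vivo AKP. Among the 19 tested genes, Kcnq1ot1, H19, Igf2 and Sgce reached the limit in in vivo AKP alone, so that they had to differ in comparisons of that line, and the counts below are read with this in mind.

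Against organoid AKP, most tested imprinted genes were higher in in vivo AKP. Of the 33, 19 were tested, and 13 were called higher (Kcnq1ot1, Cdkn1c, H19, Igf2, Snrpn, Snhg14, Ube3a, Peg3, Grb10, Sgce, Igf2r, Airn and Peg13) and 3 lower (Kcnq1, Phlda2 and Slc22a18), where 17.4% of all tested genes were higher and 17% were lower (edgeR quasi-likelihood test, adjusted p under 0.05). The 13 include Kcnq1ot1, H19, Igf2 and Sgce, whose part in this count was set in advance by the limit. The median log2 fold change of the 19 tested genes was 1.51, or 0.93 over the 15 left without Kcnq1ot1, H19, Igf2 and Sgce, and that of all tested genes was 0. With libraries of one letter alone, 11 were called within E and 15 within F. The calls for H19, Igf2, Sgce, Phlda2 and Airn were missing within E, where H19, Igf2 and Sgce fell under the limit, and the call for Igf2 was missing within F for the same reason.

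The Kcnq1 domain on distal chromosome 7 gave the largest of these differences. Kcnq1ot1 (ENSMUSG00000101609, chr7:142731402-142850327, GRCm39) lies within the span of Kcnq1 on the other strand. It stood at 62.8, 88.7 and 142 CPM (lowest, median and highest) in in vivo AKP, up to 0.650 CPM in organoid AKP and, in control, up to 0.700 CPM. Every in vivo AKP library was far above every other library, the highest of which, in mini-colon #iv, had 1.04 CPM, and mini-colon #iii had no count. In vivo AKP had 2905 counts in all, against 3 in control, a ratio of 890 (95% counting interval 304 to 4320). The unrecombined control and all OptoCre lines thus shared the near absence. Within letter E, the log2 fold change over organoid AKP was 8.12, and within F it was 9.08.

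Cdkn1c encodes p57, which blocks cyclin-dependent kinases and is expressed from the maternal copy. It measured 78.0, 99.9 and 128 CPM in in vivo AKP, against 11.1, 17.5 and 21.7 CPM in organoid AKP and, in control, 5.75, 7.43 and 8.81 CPM. These 3 lines did not overlap. In vivo AKP exceeded organoid AKP by 2.54 on the log2 scale (SE 0.16, adjusted p = 9.02e-15), and organoid AKP exceeded control by 1.16 (SE 0.19, adjusted p = 1.16e-06). The mini-colon lines spread to both sides of organoid AKP. Cdkn1c was at 2.30, 2.89 and 6.07 CPM in #ii, below every organoid AKP library, and at 26.7, 27.6 and 35.3 CPM in #iv, above every one. Line #v, at 23.6, 26.8 and 31.5 CPM, was likewise above every organoid AKP library. Lines #i (12 to 21.4 CPM) and #iii (16.9 to 22.1 CPM) lay at the organoid AKP level. Lines #iv and #v carry letter F, and organoid AKP had 18.6 to 21.7 CPM in F and 11.1 to 16.3 CPM in E. Both Cdkn1c and Kcnq1ot1, which is known to silence it on the paternal copy, were highest in in vivo AKP.

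Phlda2, a small pleckstrin homology protein that restrains placental growth and is expressed from the maternal copy, separated all AKP lines from control. Organoid AKP had 138, 164 and 183 CPM, against 8.44, 14.0 and 16.4 CPM in control, a log2 fold change of 3.58 (SE 0.25, adjusted p = 1.59e-13). In in vivo AKP the letters split. Its E libraries had 111, 126 and 139 CPM and its F libraries 54.4, 40.4 and 39.3 CPM, while organoid AKP showed no such gap. In vivo AKP was lower than organoid AKP by a log2 fold change of -0.90 over all libraries (SE 0.22, adjusted p = 0.00153), of -0.22 within E (adjusted p = 0.137) and of -1.89 within F (adjusted p = 2.76e-20), and the difference between the letters was -1.67 (SE 0.16, adjusted p = 1.62e-11). The 5 mini-colon lines held 151 to 246 CPM.

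Slc22a18, an organic cation transporter gene beside Phlda2, went the other way. It was at 4.61, 5.50 and 8.73 CPM in in vivo AKP, against 9.44, 10.8 and 12.1 CPM in organoid AKP and, in control, 53.0, 55.8 and 63.4 CPM. The mini-colon lines ranged from 4.09 to 12.1 CPM. Control thus lay above every AKP library, by a log2 fold change of -2.40 for organoid AKP over control (SE 0.15, adjusted p = 2.96e-16). Kcnq1, the potassium channel gene that gives the domain its name, changed least. It measured 56.4, 61.2 and 69.2 CPM in in vivo AKP, against 87.4, 91.5 and 97.5 CPM in organoid AKP, a log2 fold change of -0.58 (SE 0.12, adjusted p = 0.000158), and the 2 lines did not overlap. In control it depended on the letter, with 58.4 to 67.2 CPM in E and 96.8 to 108 CPM in F. Organoid AKP was accordingly above control within E (log2 fold change 0.51, adjusted p = 0.000187) and below it within F (-0.18, adjusted p = 0.0476), and the 2 differences differed from each other (adjusted p = 0.00062).

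**Figure D1:**
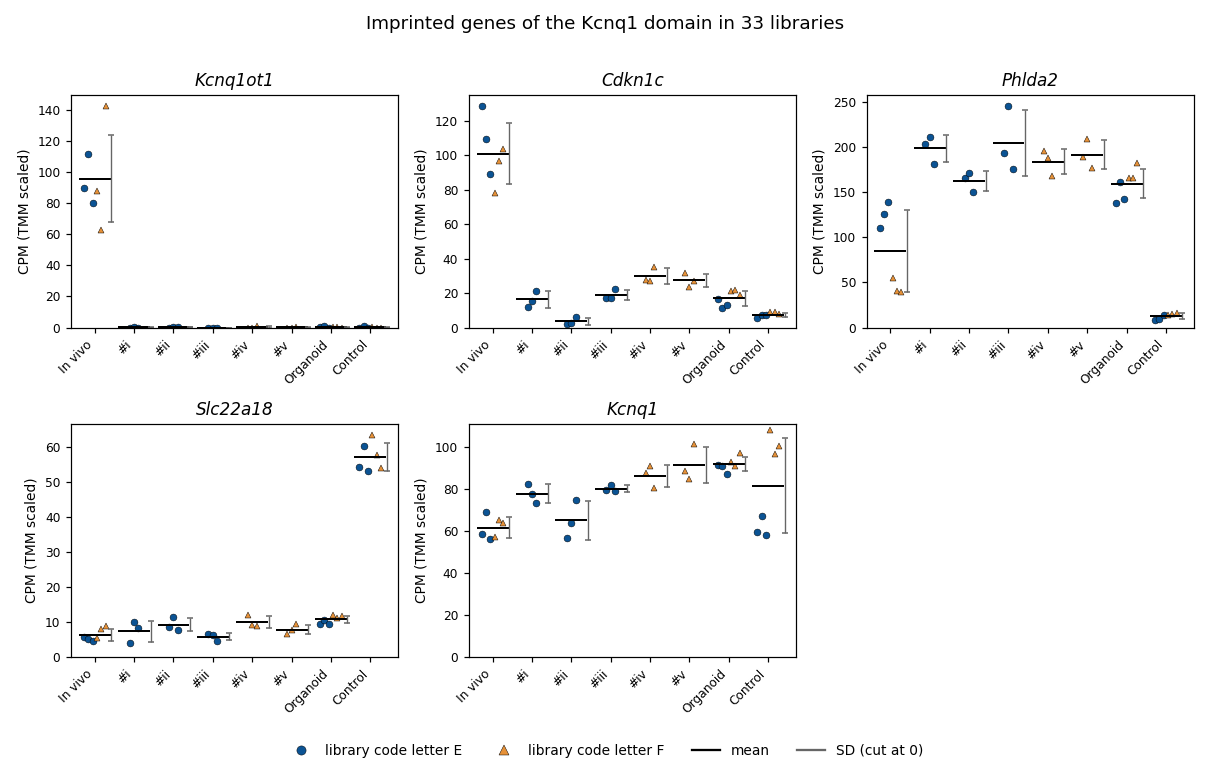
TMM-scaled CPM of 5 genes of the Kcnq1 domain in each of 33 libraries, by line, with circles for letter E, triangles for letter F, bars for the mean and error bars for the SD. Kcnq1ot1 sits between 62.8 and 142 CPM in in vivo AKP and at or under 1.04 CPM elsewhere, Phlda2 is at least 39.3 CPM in all AKP libraries and at most 16.4 CPM in control, and Slc22a18 is at least 53.0 CPM in control and at most 12.1 CPM elsewhere.

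Counting was not stated to use strand, so reads of Kcnq1ot1 and of the introns of Kcnq1 that it overlaps, of Airn and Igf2r, and of Snhg14 and the end of Ube3a cannot be told apart. The genes that flank the domain were taken as a list of 13, of which 10 were tested. In in vivo AKP over organoid AKP, Tspan32 alone was higher (log2 fold change 1.02, SE 0.16, adjusted p = 5.38e-06) and 6 were lower (Cd81, Osbpl5, Cars1, Tnfrsf22, Tnfrsf23 and Tnfrsf26), with a median of -0.36, where 17.4% of all tested genes were higher and 17% lower. In organoid AKP over control, 7 of the 10 were higher and 2 lower, where 37.3% of all tested genes were higher and 33.6% lower. The largest differences were those of Tspan32 (log2 fold change 6.97, SE 0.34) and Ascl2 (6.28, SE 0.41), a transcription factor of intestinal stem cells that is imprinted in the placenta. Ascl2 averaged 22.8 to 78.9 CPM in the AKP lines, against 0.508 ± 0.40 CPM in control (SD, n = 6).

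H19 and Igf2 lie next to the Kcnq1 domain, on its centromeric side, and share enhancers, H19 being an RNA of the maternal copy and Igf2 a growth factor gene of the paternal copy. Both were low throughout. H19 had 83 counts in in vivo AKP (0.576 to 6.55 CPM), 13 counts in mini-colon #v (0.238 to 2.0 CPM), 4 counts each in mini-colon #iv and organoid AKP and none in control. All 6 in vivo AKP libraries carried it, and in vivo AKP was at least 25.4-fold above control, taking 3 counts over the 6 control libraries as the floor. Igf2 had 47 counts in in vivo AKP (0.436 to 2.51 CPM), 6 in organoid AKP and 2 in control, a ratio of 21.6 to control (95% counting interval 5.65 to 184). Sgce, a sarcoglycan gene next to Peg10 on chromosome 6, likewise had 38 counts in in vivo AKP, 5 in organoid AKP and 3 in control, with 0.534 to 2.80 CPM in in vivo AKP and up to 0.681 CPM in organoid AKP.

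On chromosome 7 the Snrpn domain split the lines most finely. Snrpn (chr7:59630427-59820763) encodes a spliceosomal protein and Snhg14 (chr7:58957672-59628040) is the long host transcript of small nucleolar RNAs that continues from it and runs into Ube3a, and both are read from the paternal copy. Snrpn was at 24.0, 31.7 and 36.8 CPM in in vivo AKP, against 1.12, 2.23 and 4.23 CPM in organoid AKP and, in control, 0.758, 3.23 and 8.64 CPM. In vivo AKP lay above both without overlap, by a log2 fold change of 3.72 over organoid AKP (SE 0.33, adjusted p = 9.02e-11). Snhg14 followed, at 11.9, 16.9 and 22.3 CPM in in vivo AKP, against 0.690, 0.998 and 1.62 CPM in organoid AKP and, in control, 0, 1.40 and 3.53 CPM, and the log2 fold change was 4.05 over organoid AKP (SE 0.31, adjusted p = 1.13e-12).

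Among the mini-colon lines the same 2 genes formed steps. Snrpn had 1.17, 0 and 0.340 CPM in #i, 0.862, 0.263 and 0.820 CPM in #ii, 6.91, 8.23 and 9.47 CPM in #iii, 24.7, 24.5 and 21.7 CPM in #iv, and 25.5, 26.7 and 25.2 CPM in #v. Lines #i and #ii overlapped, #iii stood alone, and #iv and #v were apart from the other 3. They were within or just below the in vivo AKP range over both letters. In vivo AKP had 27.1, 24.0 and 24.4 CPM in E and 36.3, 36.8 and 36.4 CPM in F. Lines #iv and #v, both F, were thus below every in vivo AKP library of their own letter. Snhg14 had 0.340 to 0.585 CPM in #i, 0 to 0.492 CPM in #ii, 3.87 to 4.56 CPM in #iii, 9.14 to 12.1 CPM in #iv and 8.46 to 9.17 CPM in #v, in which the order of the steps was the same. The 5 lines differed in both (adjusted p = 2.63e-09 for Snrpn and 6.73e-09 for Snhg14). Lines #iv and #v are the F lines, so the upper step and the letter cannot be told apart. The F libraries of organoid AKP had 1.78, 1.12 and 2.42 CPM of Snrpn.

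Snrpn in control depended on the letter, while in organoid AKP the libraries of the 2 letters overlapped. Organoid AKP had 2.04, 4.23 and 3.24 CPM in E and 1.78, 1.12 and 2.42 CPM in F, against 1.53, 1.05 and 0.758 CPM in E and 8.60, 8.64 and 4.93 CPM in F of control. Organoid AKP was therefore above control within E (log2 fold change 1.46, adjusted p = 0.0124) and below it within F (-2.12, adjusted p = 2.64e-09). The pooled call of a lower level (-1.10, SE 0.38, adjusted p = 0.0113) was lost without control replicate 5 as well as with limma-voom. It was also lost with the compared lines fitted alone and with a block for replicate number. The letters differed in this contrast by -3.55 for Snrpn (SE 0.57, adjusted p = 1.02e-05) and -3.16 for Snhg14 (SE 0.85, adjusted p = 0.0066). In in vivo AKP over organoid AKP, the fold for Snrpn was 2.98 within E and 4.40 within F on the log2 scale, a difference of 1.41 (SE 0.41, adjusted p = 0.0098).

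Ube3a, a ubiquitin ligase gene imprinted in neurons and read from both copies in most other cells, varied little. It measured 264, 304 and 344 CPM in in vivo AKP, against 201, 224 and 236 CPM in organoid AKP and, in control, 206, 224 and 249 CPM, a log2 fold change of 0.44 over organoid AKP (SE 0.07, adjusted p = 1.38e-05). The mini-colon lines had 202 to 254 CPM. In vivo AKP did not overlap any other line, while the lines from OptoCre and control did overlap each other. Of the other paternally expressed genes of the domain, Ndn and Magel2 had 1 count between them, and Peg12 had 0 counts in in vivo AKP and in control and at most 7 in any one line.

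Peg3 (chr7:6706882-6733468), a paternally expressed zinc finger gene at the other end of the chromosome, followed a like order. It was at 7.10, 12.2 and 19 CPM in in vivo AKP, against 0, 0.226 and 1.08 CPM in organoid AKP and, in control, at most 0.379 CPM, where 1 tag was counted in all. In vivo AKP exceeded every other library, by a log2 fold change of 5.20 over organoid AKP (SE 0.41, adjusted p = 3.91e-12) and by a ratio of 356 to control (95% counting interval 63.4 to 14100). In the mini-colon lines it had no count in #i, 0.287 to 0.820 CPM in #ii, 0.914 to 1.40 CPM in #iii, 1.97, 2.48 and 0.784 CPM in #iv and 4.30, 4.34 and 2.14 CPM in #v. Line #v did not overlap #i, #ii or #iii and was at least 10.8-fold above #i, with 3 counts over the libraries of #i as the floor (adjusted p = 8.24e-05).

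**Figure D2:**
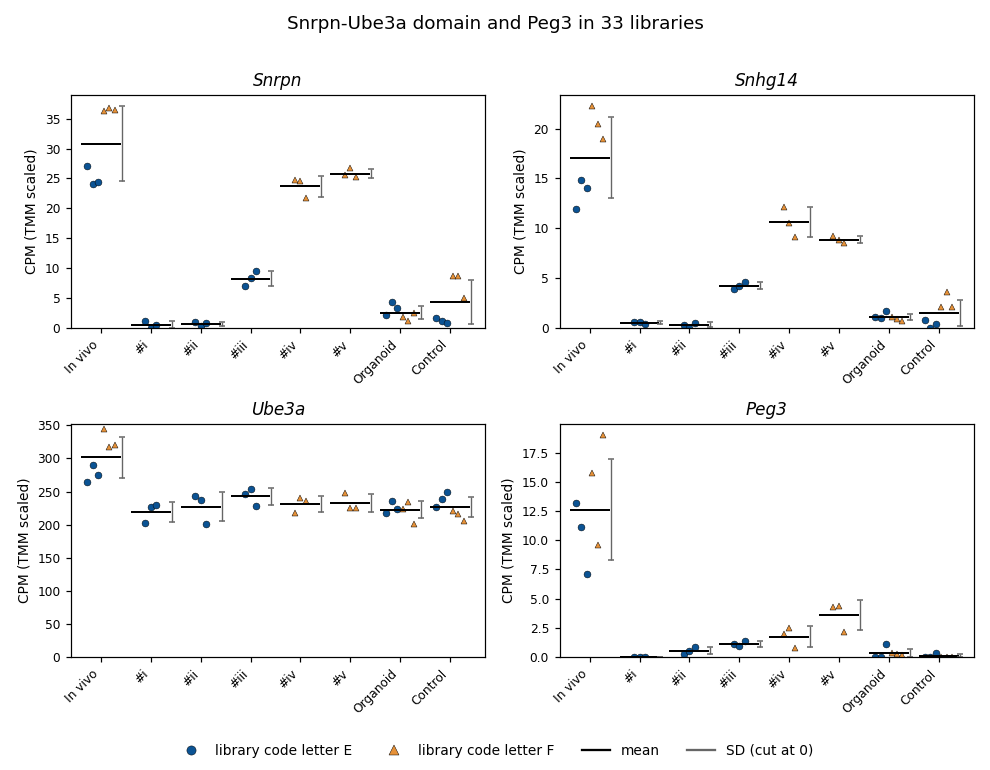
TMM-scaled CPM of Snrpn, Snhg14, Ube3a and Peg3 in each of 33 libraries, by line, with circles for letter E, triangles for letter F, bars for the mean and error bars for the SD. Snrpn steps up over the mini-colon lines, with #i and #ii at most 1.17 CPM, #iii at 6.91 to 9.47 CPM and #iv and #v at 21.7 to 26.7 CPM, and Peg3 is highest in in vivo AKP at 7.10 to 19 CPM.

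Among the genes that act on insulin-like growth factor signalling, Grb10, which encodes an adaptor that binds and damps the insulin and insulin-like growth factor receptors, was higher in organoid AKP than in control. It stood at 0.325, 1.93 and 3.45 CPM in organoid AKP, against at most 0.353 CPM and 4 counts over 6 libraries in control, a log2 fold change of 3.68 (SE 0.63, adjusted p = 4.11e-06). Of the 6 organoid AKP libraries, 5 were above every control library. Mini-colon #ii (7.47 to 8.15 CPM) and #iii (6.22 to 8.07 CPM) were above every organoid AKP library, #i (3.75 to 7.59 CPM) likewise, #iv (3.41 to 4.96 CPM) overlapped it at its lower end, and #v (2.33 to 3.44 CPM) was within the organoid AKP range. In vivo AKP split by letter into 18.5, 17.9 and 16.7 CPM in E and 6.19, 6.0 and 7.64 CPM in F. Its log2 fold change over organoid AKP was 3.82 within E and 1.27 within F, a difference of -2.56 (SE 0.49, adjusted p = 7.06e-05), and in vivo AKP was higher in both (adjusted p = 3.84e-12 and 0.000482).

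Igf2r encodes the receptor that carries IGF2 to the lysosome and is expressed from the maternal copy, and Airn (chr17:12960198-13079299) is the paternal antisense RNA that starts inside it. Igf2r was at 78.2, 77.5 and 76.6 CPM in E and 209, 149 and 139 CPM in F of in vivo AKP, 36.1, 55.6 and 36.1 CPM in E and 78.5, 93.3 and 77.7 CPM in F of organoid AKP, and 112, 79.5 and 95.1 CPM in E and 141, 128 and 120 CPM in F of control. Within each letter, every in vivo AKP library was above every organoid AKP library, and the log2 fold changes were alike, 0.88 in E (adjusted p = 8.41e-05) and 1.03 in F (adjusted p = 2.13e-05). Airn was at 3.92, 5.96 and 4.03 CPM in E and 21.5, 20.4 and 21.2 CPM in F of in vivo AKP, 1.36, 3.58 and 4.04 CPM in E and 5.52, 6.71 and 6.90 CPM in F of organoid AKP, and 3.35 to 4.99 CPM in control. The 3 F libraries of in vivo AKP lay above all others, and its E libraries overlapped those of organoid AKP. The log2 fold change over organoid AKP was 1.34 in all libraries (SE 0.36, adjusted p = 0.00441), 0.60 within E (adjusted p = 0.227) and 1.74 within F (adjusted p = 9.53e-10), and limma-voom did not call it. The letters differed in this contrast by 1.13 (SE 0.43, adjusted p = 0.0515).

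The 8 partners of the pathway were Igf1, Igf1r, Insr, Irs1, Irs2 and Igf2bp1, Igf2bp2 and Igf2bp3, of which 6 were tested. In in vivo AKP over organoid AKP, Irs1, a docking protein under both receptors, was lower (log2 fold change -1.09, SE 0.18, adjusted p = 8.86e-06), and none of the other 5 was called. In organoid AKP over control, Irs1 (1.88, SE 0.19) and the RNA-binding protein gene Igf2bp2 (2.84, SE 0.19) were higher and Insr, the insulin receptor gene, was lower (-1.52, SE 0.15), where 37.3% of all tested genes were higher and 33.6% lower.

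Gnas, which encodes the stimulatory G protein alpha subunit beside other products from alternative starts, showed mainly the letter. Its E libraries lay between 626 and 773 CPM and its F libraries between 841 and 1180 CPM over all lines, with no overlap. Within the 3 lines that have both letters, F over E was 0.58 on the log2 scale (SE 0.04, adjusted p = 4.89e-17), and the same contrast, which was chosen after the levels had been seen, called Kcnq1, Phlda2, Snrpn, Snhg14, Plagl1, Igf2r and Airn too, 8 of the 19 tested imprinted genes, or 42.1%, where 45.2% of all tested genes were called. In vivo AKP over organoid AKP was 0.01 for Gnas (SE 0.14, adjusted p = 0.973). Within each letter, every library of these lines was above every control library. Over control, the log2 fold change within F was 0.18 for in vivo AKP (adjusted p = 0.0184) and 0.16 for organoid AKP (adjusted p = 0.029). Within E it was 0.1 (adjusted p = 0.271) and 0.05 (adjusted p = 0.593). With the letter as a covariate, both differences from control were called. The transcripts that start at the different promoters share their 3′ end, so a 3′ tag sums them.

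Peg13, an RNA read from the paternal copy within an intron of Trappc9, was lower in both in vivo AKP and organoid AKP than in control. It was at 10.9, 12.6 and 20.3 CPM in in vivo AKP, against 3.64, 4.82 and 5.85 CPM in organoid AKP and, in control, 17.1, 19.6 and 24.7 CPM. In vivo AKP overlapped control through 1 library, replicate 6, and the mini-colon lines had 3.45 to 7.72 CPM. Organoid AKP was below control by a log2 fold change of -2.09 (SE 0.18, adjusted p = 3.11e-12), and in vivo AKP was above organoid AKP by 1.51 (SE 0.18, adjusted p = 4.31e-08). Impact, a brake on the kinase GCN2 that is read from the paternal copy in mouse, had 6.33, 9.65 and 11.6 CPM in in vivo AKP, against 5.70, 6.51 and 8.46 CPM in organoid AKP and, in control, 1.94, 2.80 and 4.22 CPM. No control library reached an organoid AKP library (log2 fold change 1.3, SE 0.24, adjusted p = 1.28e-05), and in vivo AKP and organoid AKP overlapped (0.42, SE 0.21, adjusted p = 0.12). Plagl1, a zinc finger transcription factor gene read from the paternal copy, had 0.80, 3.37 and 5.38 CPM in in vivo AKP, against 3.45, 4.79 and 5.53 CPM in organoid AKP and, in control, 4.38, 7.17 and 14.6 CPM. Organoid AKP was called lower than control (-0.69, SE 0.27, adjusted p = 0.0254), with overlapping ranges, and the call was lost within letter F, with limma-voom and without control replicate 1 or 2 or organoid AKP replicate 6.

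**Figure D3:**
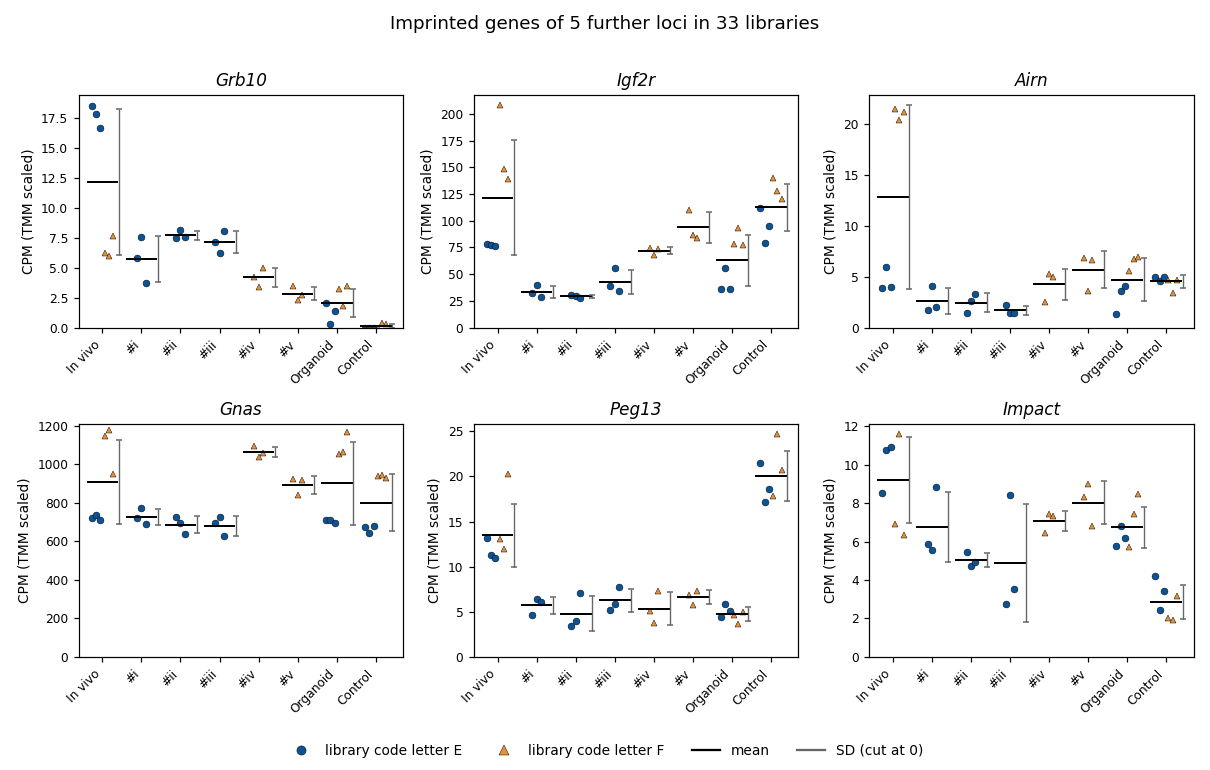
TMM-scaled CPM of Grb10, Igf2r, Airn, Gnas, Peg13 and Impact in each of 33 libraries, by line, with circles for letter E, triangles for letter F, bars for the mean and error bars for the SD. Letter E lies below letter F for Gnas in the 3 lines that hold both letters and for Airn in in vivo AKP, where E is at 3.92 to 5.96 CPM and F at 20.4 to 21.5 CPM, and the order is turned round for Grb10 in in vivo AKP.

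Against control, in vivo AKP had 13 of the 19 tested imprinted genes higher, where this held for 38.8% of all tested genes, and 4 lower, where this held for 33.3%, with a median log2 fold change of 2.62 for the 19, 1.49 for the 15 left without Kcnq1ot1, H19, Igf2 and Sgce, and 0.08 for all tested genes. Kcnq1ot1, H19, Igf2 and Sgce are among these 13 too, and their part in the count was set in advance by the limit. Organoid AKP had 5 of the 19 higher than control (Cdkn1c, Phlda2, Peg3, Grb10 and Impact), or 26.3%, where 37.3% of all tested genes were higher, and 5 lower (Slc22a18, Snrpn, Plagl1, Igf2r and Peg13), or 26.3%, where 33.6% were lower, with a median of 0.17 for the 19 and 0.06 for all. Both comparisons use the same 6 control libraries. Of the 5 higher genes, Peg3 rested on 9 tags in organoid AKP and 1 in control, a ratio of 8.74 (95% counting interval 1.21 to 383), and its call was lost without control replicate 4, 5 or 6 or organoid AKP replicate 3. The Peg3 call was also lost with limma-voom, with the compared lines fitted alone and with a block for replicate number. The letters differed for 4 of the 19 tested genes, or 21.1%, in in vivo AKP over organoid AKP (Cdkn1c, Phlda2, Snrpn and Grb10), where 20.8% of all genes differed, and for 3 of the 19, or 15.8%, in organoid AKP over control (Kcnq1, Snrpn and Snhg14), where 13.9% did.

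**Figure D4:**
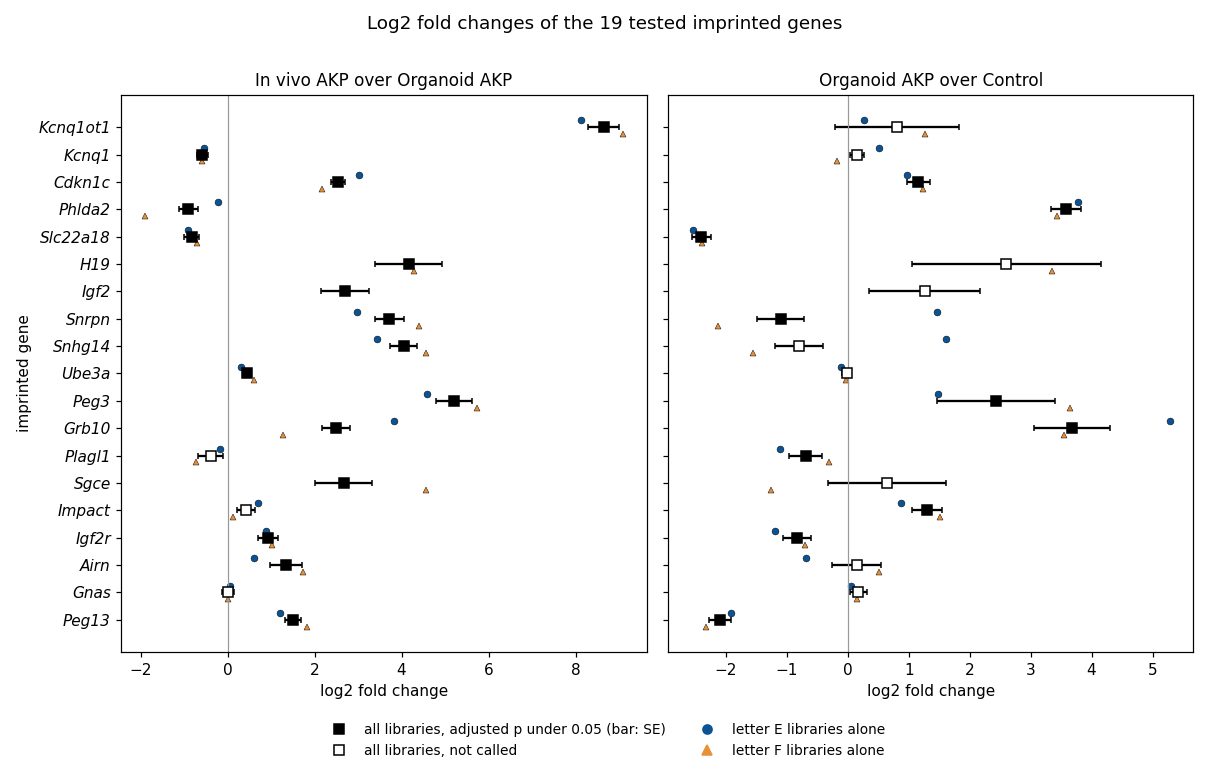
Log2 fold changes of the 19 tested imprinted genes for in vivo AKP over organoid AKP and organoid AKP over control, squares for all libraries with bars for the SE, filled where the adjusted p was under 0.05, circles and triangles for letter E and letter F libraries alone. Kcnq1ot1 stands out at 8.64 in the first comparison, and Snrpn lies on both sides of 0 in the second, at 1.46 within E and -2.12 within F.

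The 5 mini-colon AKP lines differed among themselves in 8 of the 19 tested imprinted genes (Cdkn1c, Snrpn, Snhg14, Peg3, Grb10, Plagl1, Igf2r and Gnas), or 42.1%, where 46.7% of all tested genes differed. Without replicate 1 of mini-colon #iv the count was 5, with Gnas, Plagl1 and Grb10 missing. Mini-colon #v came, by the study's account, from tumours mainly of crypt origin and #i from tumours mainly of lumen origin. The study paired them as the lines with the highest and lowest score for an in vivo AKP signature over these libraries. That signature was built from genes with large differences between in vivo AKP and organoid AKP. In that comparison the log2 fold changes were 3.72 for Snrpn, 4.05 for Snhg14, 5.2 for Peg3 and 2.54 for Cdkn1c. For genes of this kind, a higher level in #v was therefore partly set by the choice of the pair. Snrpn, Snhg14, Peg3, Igf2r and Cdkn1c were higher in #v, 5 of the 19 tested where 12.5% of all tested genes were higher and 11.9% lower, with log2 fold changes of 5.58 (SE 0.64) for Snrpn, 4.03 (SE 0.55) for Snhg14, 1.48 (SE 0.35) for Igf2r and 0.74 (SE 0.24, adjusted p = 0.0233) for Cdkn1c. None of the 19 was called lower, and 8 in both directions had an unadjusted p under 0.05. The call for Cdkn1c was lost without replicate 1 or 2 of #i and without replicate 1 or 3 of #v, and those for Cdkn1c and Igf2r were lost with the letter as a covariate. Line #v carries letter F and #i letter E, so these differences cannot be told apart from the letter.

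Against organoid AKP, the set of calls differed among the mini-colon lines, except between #iv and #v. Line #i differed in Grb10 (log2 fold change 1.40, SE 0.42, adjusted p = 0.038), 1 of the 19 tested where 7.15% of all genes were called, and this call was lost without organoid AKP replicate 2 or 5, without any 1 of the #i replicates and with limma-voom. Line #ii had 4 calls where 24.6% of all genes were called, with Cdkn1c at -2.10 (SE 0.26), Igf2r at -1.13 (SE 0.31), Kcnq1 at -0.49 (SE 0.14) and Grb10 at 1.82 (SE 0.39), and the call for Kcnq1 was lost without replicate 1 or 2 of #ii. Line #iii had 4 where 16.2% of all genes were called, with Slc22a18 at -0.87 (SE 0.22), Snrpn at 1.82 (SE 0.43), Snhg14 at 2.04 (SE 0.42) and Grb10 at 1.69 (SE 0.40), and the call for Slc22a18 was lost without replicate 3 of #iii. Lines #iv and #v had the same 4 genes called higher, Cdkn1c, Snrpn, Snhg14 and Peg3, where 4.90% and 10.6% of all genes were called. In #v their log2 fold changes were 0.64 (SE 0.19) for Cdkn1c, 3.47 (SE 0.37) for Snrpn, 3.10 (SE 0.36) for Snhg14 and 3.34 (SE 0.51) for Peg3. The call for Cdkn1c was lost without replicate 3 of #iv in that line, and in #v without replicate 2 or 3 of organoid AKP or replicate 1 or 3 of #v. In #iv the call for Peg3 was lost without replicate 1 or 2. Set against organoid AKP libraries of the same letter only, the calls for Cdkn1c in #iv and #v, for Kcnq1 and Igf2r in #ii and for Snrpn and Slc22a18 in #iii were lost. The 5 comparisons share the organoid AKP libraries.

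**Figure D5:**
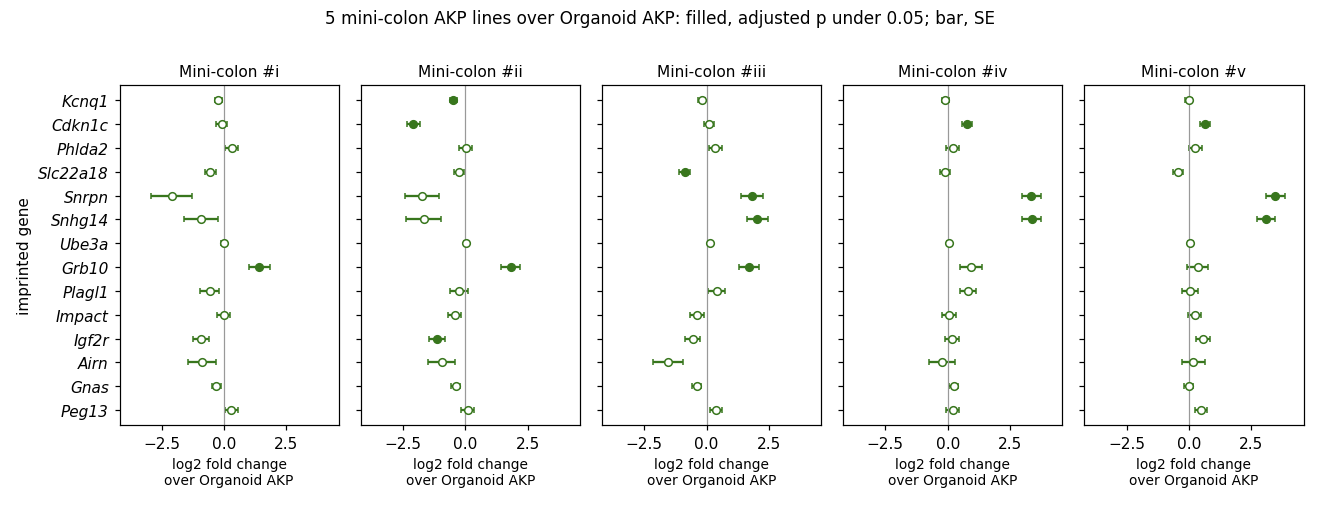
Log2 fold changes of 14 imprinted genes in each mini-colon AKP line over organoid AKP, with SE bars and filled points where the adjusted p was under 0.05. Snrpn and Snhg14 are at or below 0 in #i and #ii and at least 1.82 in #iii, #iv and #v, and Grb10 is filled in #i, #ii and #iii.

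Genes that lay down, keep or read imprints were taken as a list of 20, from the methyltransferases to polycomb subunits, of which 17 were tested. In in vivo AKP over organoid AKP, 4 were higher, namely the dioxygenases Tet2 (log2 fold change 0.89, SE 0.18) and Tet3 (0.43, SE 0.09), the methyltransferase Dnmt3b (0.60, SE 0.23) and Zfp445 (0.37, SE 0.09), a zinc finger protein that guards imprints, and Uhrf1, which guides Dnmt1 to newly copied DNA, was lower (-0.51, SE 0.14), where 17.4% of all tested genes were higher and 17% lower. Dnmt1, the maintenance methyltransferase, differed by -0.07 (SE 0.08, adjusted p = 0.561). In organoid AKP over control, 12 of the 17 were higher, where 37.3% of all tested genes were higher, with Dnmt1 at 2.40 (SE 0.09), Uhrf1 at 3.03 (SE 0.17) and Zfp57 at 2.73 (SE 0.69), and Tet3 was lower (-0.68, SE 0.09), where 33.6% of all tested genes were lower. Zfp57 was low in all lines, with means of 1.17 CPM in in vivo AKP, 0.799 to 4.07 CPM in the mini-colon lines, 1.39 CPM in organoid AKP and, in control, 0.198 CPM.

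A list of 32 further autosomal imprinted genes had 28 in the files and 15 tested. In in vivo AKP over organoid AKP, 3 were higher, Asb4 (log2 fold change 4.0, SE 0.71), Ppp1r9a (1.69, SE 0.22) and Inpp5f (0.95, SE 0.13), and 4 were lower, Plxdc2 (-3.26, SE 0.26), Gatm (-0.88, SE 0.29), Commd1 (-0.61, SE 0.14) and H13 (-0.23, SE 0.09), with a median of 0.17, where 17.4% of all tested genes were higher and 17% lower. Asb4 and Ppp1r9a lie in the same cluster on chromosome 6 as Sgce and Peg10.

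The cells behind these values were epithelial by their markers. The 9 epithelial markers summed to 2889 to 3565 CPM in the AKP libraries and 9421 to 10820 CPM in control. Over control, 8 of the 9 were called lower in in vivo AKP (median log2 fold change -2.36), where 33.3% of all tested genes were lower. In organoid AKP, 8 were likewise lower (median -2.21), where 33.6% of all tested genes were. In in vivo AKP and mini-colon #i and #iii, 1 of the 9 had no count. Of the 12 fibroblast and muscle markers, Vim stood apart, at 37.4 to 42.3 CPM in E and 202 to 275 CPM in F of in vivo AKP, 39.9 to 117 CPM in mini-colon #v, 4.09 to 21.7 CPM in organoid AKP and, in control, up to 0.384 CPM. The other 11, among them Col1a1, Col3a1 and Dcn, summed to at most 1.73 CPM in in vivo AKP, against at most 2.30 CPM in control. The 5 endothelial markers summed to 2.85 to 26.8 CPM in in vivo AKP, 1.35 to 6.58 CPM in organoid AKP and, in control, 0.705 to 1.90 CPM, and the 7 enteroendocrine markers summed to 1.60 to 23.8 CPM in in vivo AKP, 0.173 to 2.93 CPM in organoid AKP and, in control, 0.705 to 8.72 CPM. The 6 immune markers summed to 9.61 to 15.2 CPM in in vivo AKP, against 5.18 to 12.6 CPM in organoid AKP, and the 5 neural markers summed to 1.96 to 6.14 CPM in in vivo AKP, against 6.13 to 7.94 CPM in organoid AKP. Their part in the differences between lines was not tested, and in bulk libraries fewer cells of a type and less RNA per cell cannot be told apart.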

How the data were processed

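RNA from 33 organoid libraries of 8 lines was read with QuantSeq 3′ tags. The authors aligned reads with STAR to GRCm39 and deposited raw counts per gene identifier, 1 table per library; the annotation, counting tool and strand setting are not given in the sources used here. Of the 32285 identifiers, 611 had no gene name and held 6.85% of counts (6.77% in 1 identifier). They stayed in library sizes.

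From the deposited counts, a gene was kept if 3 or more libraries reached 1 CPM, TMM set the scaling, and lines were fitted with edgeR 4.0.16 (R 4.3.3) by quasi-likelihood, with a coefficient for each line over all 33 libraries. The p-values were adjusted by Benjamini-Hochberg over all tested genes, with calls under 0.05. CPM are TMM-scaled. The test was checked on simulated data. Ratios with 1 to 3 counts carry exact 95% intervals, and a group at 0 was set to a floor of 3 counts. Intervals and floors cover counting error only.

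Members past the filter with a call and a mean of at least 5 CPM in 1 line are given by library, the others by range or total. The members and lists were chosen with earlier results of these data known, and the tests of the letters after the levels had been seen. Alternatives were DESeq2 1.42.0, limma-voom (limma 3.58.1), other scalings and filters, the letter as a covariate or alone, the compared lines alone, a replicate block and leaving out each library. Figures were drawn with matplotlib 3.10.9. One allele that the AKP lines carry is not reported here.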

Additional observations from a re-analysis of the deposited data

Results flagged for a closer look

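Of 46 pairs of gene and line with 6 libraries, 2 had a library far from the rest, where chance gives about 1 in 20. Airn was lowest in control replicate 5, at 3.35 CPM, with the nearest library at 4.55 CPM. Peg13 was highest in in vivo AKP replicate 6, at 20.3 CPM, with the nearest library at 13.2 CPM.

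Letters F and E differed in the size of a contrast for 7 values, by the interaction term of edgeR's quasi-likelihood fit, and all are differences of log2 fold changes, F minus E. For in vivo AKP over organoid AKP they were -0.85 for Cdkn1c (adjusted p = 0.00876), -1.67 for Phlda2 (adjusted p = 1.62e-11), 1.41 for Snrpn (adjusted p = 0.0098) and -2.56 for Grb10 (adjusted p = 7.06e-05). For organoid AKP over control they were -0.67 for Kcnq1 (adjusted p = 0.00062), -3.55 for Snrpn (adjusted p = 1.02e-05) and -3.16 for Snhg14 (adjusted p = 0.0066). The meaning of the letters is not given in the sources used here, and the cause was not tested.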

How the results depend on the processing

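Some counts of imprinted genes called moved by over 1.5 times. For mini-colon #i over organoid AKP (1 call, and 5 genes at an unadjusted p under 0.05), limma-voom, the letter as a covariate and the compared lines alone gave 0, and DESeq2 and the replicate block gave 3. For #v over #i (5 calls), the compared lines alone and the replicate block gave 9 each. The block gave 7 for #iv and 7 for #v over organoid AKP (4 calls each). It kept only replicate numbers that both lines had, which for organoid AKP left replicates 1 to 3, all of letter E. Lines #iv and #v are F, so in that fit line and letter cannot be told apart. Organoid AKP libraries of the same letter gave 2 for #ii and 2 for #iii (4 calls each). Leaving out 1 library gave 16 to 16 calls for in vivo AKP over organoid AKP, 17 to 17 for in vivo AKP over control, 8 to 11 for organoid AKP over control, 5 to 8 among the mini-colon lines, 4 to 5 for #v over #i, and 0 to 2 for #i, 3 to 5 for #ii, 3 to 6 for #iii, 3 to 4 for #iv and 3 to 4 for #v over organoid AKP. Where a value was called in one of the fits compared, direction turned for Airn in in vivo AKP over control within letter E (-0.08). It also turned for Snrpn (1.46, within E) and Kcnq1 (-0.18, within F) in organoid AKP over control. The last was Gnas in #v over organoid AKP with the block (0.33). That fit held F libraries of #v and E libraries of organoid AKP alone, so this turn cannot be told apart from the letter. Within a letter, 4 values not called in either fit turned too, Snhg14 (1.62 in E), Airn (-0.68 in E) and Sgce (-1.26 in F) in organoid AKP over control and Igf2r (-0.32 in E) in in vivo AKP over control.

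Replicate numbers did not pair the libraries: same-numbered libraries correlated at -0.1 to 0.38, and not every pair exceeded 0.1. With the replicate block, in vivo AKP over organoid AKP had 15 calls, without Phlda2. For #iv and #v the block set F libraries against E libraries of organoid AKP alone. Over all genes, calls moved to 490 with the letter as a covariate and 221 with organoid AKP libraries of the same letter for #i (973), to 1500 (#ii, of 3350) and 776 (#iii, of 2210) with the same letter, to 1420 for #iii with the covariate, to 5861 with the compared lines alone, 5876 with the block and 1264 with the covariate for #v over #i (3327), to 4301 (#iv, of 667) and 3936 (#v, of 1440) with the block, and to 4023 with the covariate among the mini-colon lines (6349). Scaling by library size alone moved the median of all genes to 0.14 in in vivo AKP and in organoid AKP over control. The causes were not tested. Depth limits the genes at trace level, whose ratios carry wide counting intervals.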
